A study of Mus musculus with 3 samples.

Results

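The 9 scavenger and lectin receptors of macrophages examined here are Mrc1, Stab1, Msr1, Marco, Cd36, Cd163, Clec10a, Clec4n and Colec12. They were taken as a named list from 12393 genes, and each was read from every probe set that the array annotation assigns to that gene alone, 15 of 20380 such probe sets. Bone marrow cells of C57/BL6 mice were exposed to human RANKL (150 ng/ml) for 0, 24 or 72 h, and RNA of 1 culture per time was hybridised to 1 array. Before that, each of the 3 cultures, the 0 h one included, had received human M-CSF (50 ng/ml) over 3 days, which drives marrow cells to become macrophages. The labels call the cells precursors at 0 h, differentiating precursors at 24 h and osteoclasts at 72 h. RANKL is the cytokine that turns such macrophages into bone-resorbing osteoclasts. No culture kept for 24 or 72 h without RANKL is among the samples, so RANKL and time in culture cannot be told apart. The labels do not give the number of animals.

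Scavenger receptors bind modified lipoproteins, polyanions, dying cells and microbial surfaces and carry them into the cell. C-type lectin receptors bind sugars, often with the help of calcium. Many take up glycoproteins, and some signal, for example through immunoreceptor tyrosine-based activation motifs. Both kinds mark tissue macrophages, and several of them are used as markers of an uptake-competent or alternatively activated macrophage state. The osteoclast arises from the same precursor but is specialised for resorbing bone.

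The reference table of gene start windows, from RefSeq on build GRCm38.p6, held a window of 300 bases for 5 of the 9 receptors, from 250 bases before to 50 bases after the annotated start. Those of Mrc1, Stab1 and Marco are shown because these 3 genes were all far lower after RANKL and each window holds the PU.1 core GAGGAA, the short motif bound by the myeloid transcription factor PU.1. Capitals mark that core, written TTCCTC where it lies on the other strand.
Mrc1, chr2:14229164-14229463, plus strand: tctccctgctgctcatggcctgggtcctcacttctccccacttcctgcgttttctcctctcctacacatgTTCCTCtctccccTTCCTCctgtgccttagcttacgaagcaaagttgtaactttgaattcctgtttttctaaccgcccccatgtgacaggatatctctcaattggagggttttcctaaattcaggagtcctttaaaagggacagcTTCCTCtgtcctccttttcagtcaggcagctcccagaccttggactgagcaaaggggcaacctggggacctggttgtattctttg
Stab1, chr14:31168592-31168891, minus strand: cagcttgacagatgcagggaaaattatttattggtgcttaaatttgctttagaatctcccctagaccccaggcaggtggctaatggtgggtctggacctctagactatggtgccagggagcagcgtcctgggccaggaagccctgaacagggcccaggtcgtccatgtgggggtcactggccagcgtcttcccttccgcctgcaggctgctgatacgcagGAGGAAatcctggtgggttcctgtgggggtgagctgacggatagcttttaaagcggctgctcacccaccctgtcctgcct
Marco, chr1:120504975-120505274, minus strand: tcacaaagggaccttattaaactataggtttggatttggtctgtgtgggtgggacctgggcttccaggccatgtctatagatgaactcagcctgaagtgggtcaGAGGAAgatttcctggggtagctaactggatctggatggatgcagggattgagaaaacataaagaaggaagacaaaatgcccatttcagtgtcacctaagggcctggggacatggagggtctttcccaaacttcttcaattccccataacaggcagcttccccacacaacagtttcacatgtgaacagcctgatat
The core was found 3 times in the Mrc1 window and 1 time each in those of Stab1 and Marco, on either strand. It was absent from the windows of Cd163 and of Cd36, and Cd36 was also lower after RANKL. Of all 32851 windows of the table, 28.3% held at least 1 such core, so its presence is common. The Stab1 and Cd36 windows also held the MAF half-site TGCTGA, which 19.5% of windows hold. Neither the AP-1 motif TGANTCA, found in 7.81% of windows, nor the C/EBP motif TTGCNNAA, found in 10.8%, matched any of the 5 windows. Each motif was searched on both strands, and no pair of these motifs overlapped in the 5 windows. A match is a run of letters and not a measured binding site.

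Signals are array intensities. The arrays as deposited differed in overall brightness, with medians of 36.7 (0 h), 60.9 (24 h) and 62.7 (72 h). All values below were therefore centred on each array's median log2 value and are called scaled signals. Scaled signals under 29.6 (40th percentile over gene probe sets) are printed as measured but were raised to that value, the floor, before any difference was taken. A fold with 1 side under the floor is given as "at least". The call for a gene required a 2-fold difference. Each time has a single array, which leaves no replicate error and allows no test. As a technical error, the disagreement between the 2 brightest probe sets of a gene was taken, with both arrays above the floor. Its SD divided by the square root of 2, here called the technical SD, was 0.41 on the log2 scale at 24 h against 0 h. The SD was 0.49 at 72 h against 0 h, and 0.36 at 72 h against 24 h. How far cultures vary is not in these SDs, nor is any error that both probe sets share on an array.

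Markers of macrophages, the cells that M-CSF culture yields, and of osteoclasts were read first. The scaled signals of 7 macrophage markers summed to 16789 (0 h), 9651 (24 h) and 14457 (72 h), and each of the 7 passed the floor on at least 1 array. That sum is carried by Csf1r, within 2-fold at both later times, and by Cd68, which was 2.34-fold higher at 72 h than at 0 h. Of the 7 markers 5 were at least 2-fold lower than at 0 h at both later times, with list medians of -1.82 at 24 h and -1.39 at 72 h. Over all measured genes 9.22% were lower at 24 h and 12.8% at 72 h. Fcgr1, a high-affinity Fc receptor, was 11.6-fold lower at 72 h, Mertk 8.76-fold and Adgre1 7.04-fold. Itgam was 2.61-fold and Cd14 2.57-fold lower. The scaled signals of 7 osteoclast markers summed to 1829 (0 h), 7800 (24 h) and 30068 (72 h). In cultured cells read in bulk, fewer cells of a type and less RNA per cell cannot be told apart.

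By 24 h most of these receptors were already low. Against 0 h, 7 of the 9 receptors were at least 2-fold lower at 24 h and 0 were higher, while 9.22% of all 8439 measured genes were lower and 13.2% higher. Their median log2 difference was -2.48, beside 0.12 for all measured genes. At 72 h, 6 of 9 were lower than at 0 h and 0 higher, with a background of 12.8% lower and 12.5% higher among 8558 genes, and the median was -2.54 beside -0.01. That median counts Marco and Cd163 at their bounds, and it was -4.24 with no floor and -1.94 with the floor at the 60th percentile, where Cd163 drops out. Between 24 and 72 h only Stab1 passed 2-fold, among 7 receptors above the floor on at least 1 of those arrays. There 10.0% of 8391 genes were lower and 6.92% higher, and the medians were -0.57 and -0.14. The 3 comparisons share arrays and are not independent. The receptors were chosen with earlier results of these data known, so their counts are not a test against the all-gene shares.

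**Figure D1:**
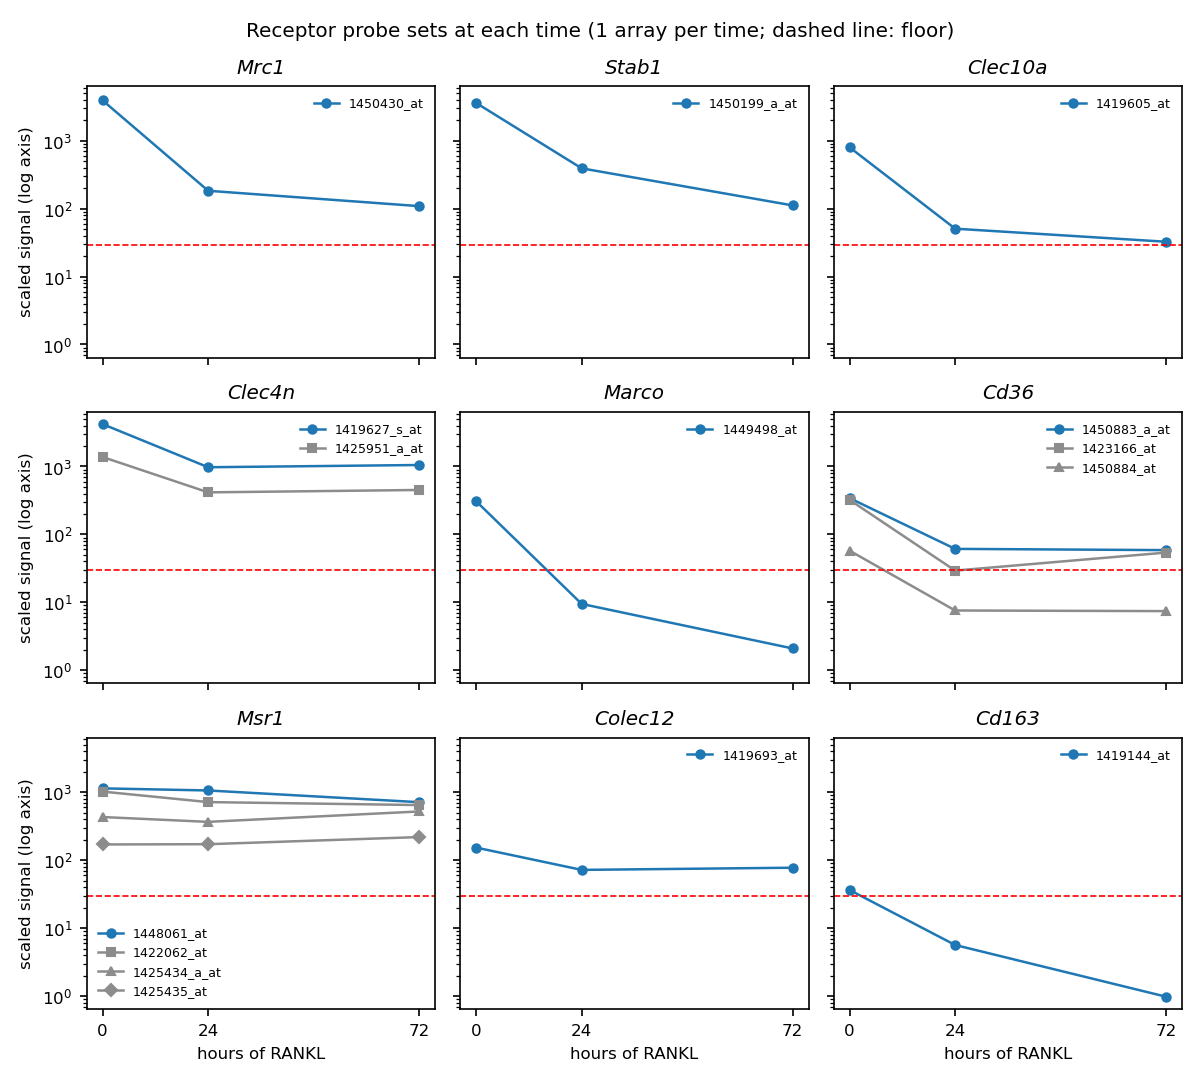
Scaled signal (log axis) of each of the 15 receptor probe sets at 0, 24 and 72 h of RANKL, 1 panel per gene and 1 array per time. Blue marks the brightest probe set of a gene, grey its others, and the red dashed line the floor at 29.6. The lines of Mrc1, Stab1, Clec10a, Clec4n, Marco and Cd36 drop steeply by 24 h, those of Msr1 run nearly flat, and Cd163 starts just above the floor.

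Mrc1 encodes the mannose receptor (CD206), which takes up mannosylated and sulphated glycoproteins and collagen fragments by endocytosis. Its 1 probe set gave a scaled signal of 3911 (0 h), 183 (24 h) and 109 (72 h). It was high in the 0 h culture only, and most of the drop was complete by 24 h. Mrc1 was 21.4-fold lower at 24 h than at 0 h and 35.9-fold lower at 72 h, with log2 differences of -4.42 and -5.17. With both arrays above the floor required, these were the decreases of rank 3 of 7455 and rank 2 of 7345. From 24 to 72 h the further difference was -0.75 on the log2 scale, within 2-fold.

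Stab1 encodes stabilin-1, a large scavenger receptor of macrophages and sinusoidal endothelium that clears acetylated low-density lipoprotein and the matrix protein SPARC. It had a scaled signal of 3591 (0 h), 392 (24 h) and 111 (72 h). Unlike the 6 other receptors measured at 24 or 72 h it was lower again at the last time by more than 2-fold. Stab1 was 9.16-fold lower at 24 h than at 0 h (log2 difference -3.20), 32.2-fold lower at 72 h than at 0 h (-5.01), and 3.52-fold lower at 72 h than at 24 h (-1.81). On the log2 scale 63.8% of its whole decrease was present at 24 h, beside 85.5% for Mrc1 and 86.1% for Clec10a. Since stabilin-1 is also an endothelial protein, markers of endothelium were read beside it. Of 6 such markers 4, Cdh5, Tek, Pecam1 and Tie1, were under the floor on all 3 arrays, and the list summed to 131 (0 h), 93.1 (24 h) and 121 (72 h).

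Clec10a encodes the macrophage galactose-type lectin MGL1 (CD301a). Its scaled signal was 798 (0 h), 50.7 (24 h) and 32.5 (72 h), the last just above the floor. It was 15.7-fold lower at 24 h than at 0 h (log2 difference -3.98) and 24.5-fold lower at 72 h (-4.62), rank 7 among the decreases in both comparisons. The related gene Mgl2, the second galactose-type lectin of the mouse, was under the floor on all 3 arrays.

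Clec4n encodes dectin-2, a receptor for fungal mannans that signals through the Fc receptor gamma chain. By its brightest probe set, 1419627_s_at, the scaled signal was 4202 (0 h), 975 (24 h) and 1052 (72 h). Its other probe set, 1425951_a_at, gave 1378, 416 and 451. Both probe sets were low at 24 h and level afterwards, so the gene kept a clear signal at 72 h. By the brighter probe set Clec4n was lower than at 0 h by log2 differences of -2.11 at 24 h and -2.00 at 72 h, and by the other of -1.73 and -1.61.

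Marco encodes a class A scavenger receptor with a collagenous stalk that binds bacteria and particles. Its scaled signal was 308 (0 h), 9.48 (24 h) and 2.09 (72 h). It was above the floor only at 0 h, so it was at least 10.4-fold lower at both later times, and nothing can be said of the step from 24 to 72 h.

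Cd36 encodes a class B scavenger receptor for oxidised lipoproteins, thrombospondin and long-chain fatty acids, found on macrophages, platelets, adipocytes and capillary endothelium. Probe set 1450883_a_at gave a scaled signal of 342 (0 h), 61.2 (24 h) and 58.7 (72 h). Probe set 1423166_at gave 322, 29.3 and 54.0, and 1450884_at gave 57.6, 7.58 and 7.43. All 3 were higher at 0 h than at either later time. The second was under the floor at 24 h. The third was under it at both later times, at least 1.95-fold lower than at 0 h, which gives no call. By the brightest probe set Cd36 was 5.58-fold lower at 24 h and 5.82-fold lower at 72 h than at 0 h (log2 differences -2.48 and -2.54), and the times after RANKL differed from each other by a factor of 1.04. By 1423166_at it was at least 10.9-fold lower at 24 h and 5.96-fold lower at 72 h.

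Platelet and megakaryocyte markers were lower at 24 h than at 0 h, as Cd36 was. The 4 on the array, Pf4, Itga2b, Gp9 and Ppbp, summed to a scaled signal of 8434 (0 h), 1661 (24 h) and 762 (72 h). All of them were at least 2-fold lower at both later times than at 0 h, beside 9.22% (24 h) and 12.8% (72 h) of all measured genes. At 72 h against 24 h these 4 markers had a median of -0.91, with Ppbp 4.14-fold lower, while Cd36 had a log2 difference of -0.06. The 2 adipocyte markers on the array, Adipoq and Lep, were under the floor on all 3 arrays. Neutrophil markers, 6 on the array, summed to 13317 (0 h), 9627 (24 h) and 946 (72 h). Stromal and osteoblast markers, also 6, summed to 2050, 2254 and 7011. Dendritic cell markers, 5 on the array, summed to 99.3 (0 h), 165 (24 h) and 171 (72 h). Of these, 3 were under the floor on all 3 arrays and Flt3 stayed within 2-fold. Itgax was 2.34-fold higher at 24 h and 2.70-fold higher at 72 h than at 0 h. The part of these other cell types in the receptor signals was not tested.

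Msr1 and Colec12, the other class A scavenger receptors, did not share the steep decrease. Msr1 encodes scavenger receptor A, which takes up acetylated lipoprotein. Its brightest probe set, 1448061_at, gave a scaled signal of 1142 (0 h), 1063 (24 h) and 715 (72 h), and 1422062_at gave 1024, 717 and 648. The other 2, 1425434_a_at and 1425435_at, gave 432, 367 and 522, and 171, 172 and 219. All 4 probe sets stayed within 2-fold in every comparison of scaled signals, and they differed in direction at 72 h. Against 0 h the 72 h log2 differences were -0.68 and -0.66 by the first pair and 0.27 and 0.36 by the second pair. On the deposited scale the 72 h differences were 0.10 and 0.11 by the first pair and 1.04 and 1.13 by the second pair, these last 2 past 2-fold higher, so no direction is given for Msr1.

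Colec12 encodes collectin-12, a class A scavenger receptor with a C-type lectin domain. Its scaled signal was 153 (0 h), 72.0 (24 h) and 77.5 (72 h). The log2 difference from 0 h was -1.09 at 24 h, just past 2-fold, and -0.98 at 72 h, just inside it, and these 2 values differ by less than the technical SD. On the deposited scale they were -0.36 and -0.21, so the 24 h call depends on the scaling. Cd163, the receptor for haemoglobin bound to haptoglobin, had a scaled signal of 36.4 (0 h), 5.64 (24 h) and 0.977 (72 h). It passed the floor barely at 0 h and not later, so the difference was at least 1.23-fold and carries no call.

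**Figure D2:**
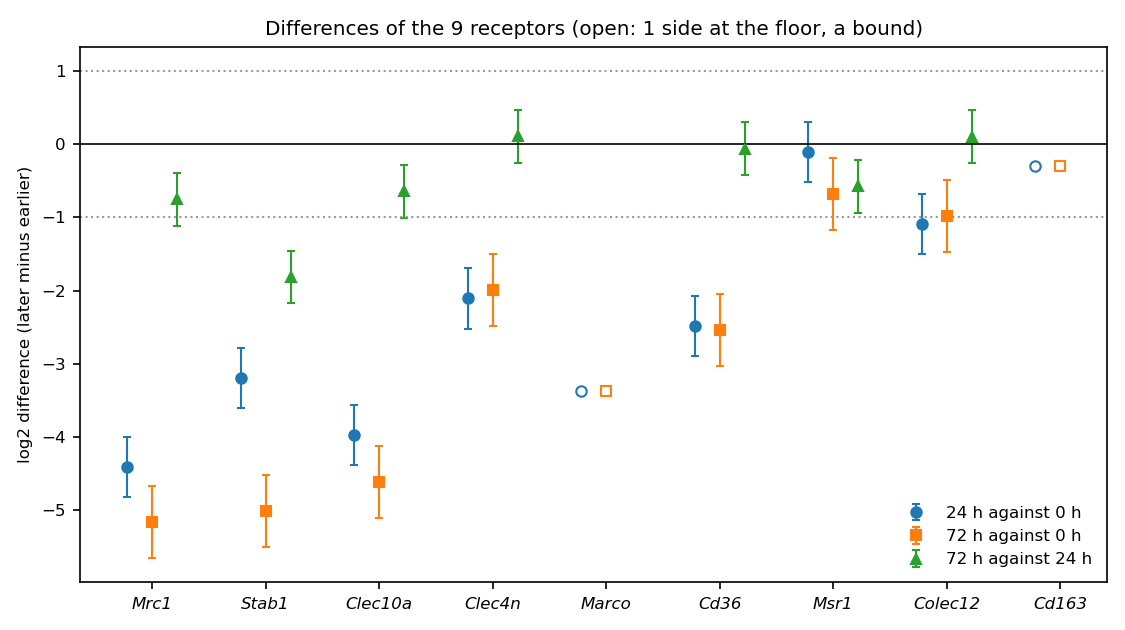
Log2 difference of each receptor's brightest probe set for 24 h against 0 h (circles), 72 h against 0 h (squares) and 72 h against 24 h (triangles), with the technical SD as error bars. Open symbols are bounds without error bars, and dotted lines mark 2-fold. Mrc1, Stab1 and Clec10a reach -4.62 or below at 72 h against 0 h, and Stab1 alone lies below -1 at 72 h against 24 h.

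Because the arrays after RANKL were brighter as deposited, the decreases of Mrc1, Stab1, Clec10a, Clec4n, Marco and Cd36 were smaller on the deposited scale, with Mrc1 at -4.40 and Cd36 at -1.77 for 72 h against 0 h.

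**Figure D3:**
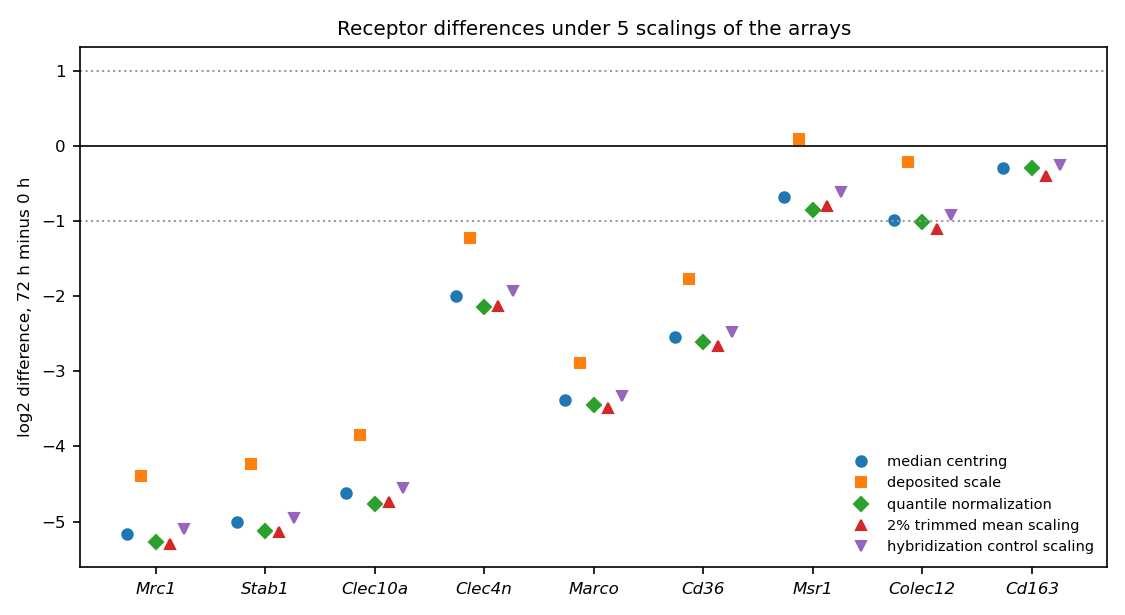
Log2 difference of each receptor at 72 h minus 0 h under 5 scalings of the arrays. Dotted lines mark 2-fold. Mrc1, Stab1, Clec10a, Clec4n, Marco and Cd36 stay below -1 under each of the 5 scalings, Msr1 changes sign on the deposited scale, Colec12 crosses -1, and Cd163 has no point on the deposited scale because it was under the floor there.

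The decreases differed in size and timing among receptors. Cd36, Clec4n and Colec12 had 97.6%, 105% and 111% of their 72 h log2 difference at 24 h. Their 24 and 72 h signals differed by factors of 1.04, 1.08 and 1.08.

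For each receptor above the floor on all 3 arrays, the nearest of 7164 such genes were found by Euclidean distance in the pair of log2 differences from 0 h at 24 and 72 h, that is over 3 arrays. The nearest to Mrc1 were Saa3 (distance 0.63), Clec10a (0.71) and Fcrls (0.75). The nearest to Stab1 were Saa3 (0.60), Ly86 (0.74) and Mmp8 (0.76), and those to Clec10a were Saa3 (0.55), Mrc1 (0.71) and Malat1 (0.73). The neighbours of these 3 receptors lay farther off than those of the others. These 3 are among the largest decreases of all genes, where few other genes lie. Lgals9 (0.078), Slpi (0.11) and Flot1 (0.13) lay nearest to Cd36. Nfkbiz (0.060), Fam117a (0.077) and Rxra (0.10) lay nearest to Clec4n. The genes nearest to Colec12 were Klf6 (0.018), Stimate (0.023) and Dnmbp (0.036), and those nearest to Msr1 were Mvb12b (0.015), Tgs1 (0.015) and Srrd (0.016).

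Other C-type lectin receptors held both lower and higher genes. Of 38 listed genes 29 were on the array and 17 measured, of which 6 were at least 2-fold lower at 72 h than at 0 h and 3 higher, with a median log2 difference of -0.14. On the deposited scale that median was 0.38. Over all 8558 measured genes 12.8% were lower and 12.5% higher at 72 h against 0 h. Cd93, a lectin-like receptor of myeloid cells and endothelium, was 16.4-fold lower, Clec4e (mincle) 6.69-fold, Clec4d (a mincle partner) 4.49-fold and Clec1b, a platelet and myeloid receptor, at least 4.05-fold. Clec7a, the beta-glucan receptor dectin-1, was 2.90-fold lower. Clec4a2, an inhibitory lectin of myeloid cells, was 2.99-fold higher, and Cd207 (langerin) and Clec2d were at least 2.59-fold and 2.12-fold higher. Clec4a2 had a scaled signal of 849 (0 h), 1739 (24 h) and 2533 (72 h), opposite in direction to Clec4n.

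Among other scavenger receptors 7 of 13 measured genes were at least 2-fold lower at 72 h than at 0 h and 3 were higher. The median was -1.12, and -0.35 on the deposited scale. At 24 h 5 were lower and 1 higher, with a median of -0.56 that was 0.19 on the deposited scale. The all-gene shares were 12.8% lower and 12.5% higher at 72 h, and 9.22% lower and 13.2% higher at 24 h. The apoptotic cell receptor Mertk was 8.76-fold lower at 72 h, Lrp1, a receptor of many ligands, 6.55-fold, the lysosomal membrane protein Scarb2 3.97-fold and the secreted Cd5l 3.74-fold. Cd5, a scavenger receptor cysteine-rich protein known from lymphocytes, was at least 4.51-fold higher, the hyaluronan receptor Cd44 3.24-fold and Cd68 2.34-fold. Scarb1, the high-density lipoprotein receptor of the Cd36 family, stayed within 2-fold at a factor of 1.63. Mertk, Cd68 and Cd14 are also among the macrophage markers, and Lrp1 is also counted as lower in the haemoglobin and haem list.

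In the galectin and siglec list 3 of 10 measured genes were lower at 72 h than at 0 h and 0 higher. The all-gene shares were 12.8% and 12.5%, and the list median was -0.39, or -0.05 on the deposited scale. The lower genes were the siglecs Cd33, at least 10.3-fold lower, and Cd22, 2.33-fold lower, and the galectin Lgals9, 6.01-fold lower. Lgals3, galectin-3, differed by a factor of 1.07.

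Adaptors and kinases that carry lectin receptor signals stayed within 2-fold in 7 of 12 measured genes. At 72 h against 0 h 3 were lower and 2 higher, beside 12.8% and 12.5% of all genes. The median was -0.51, and 0.27 on the deposited scale. Fcer1g, the gamma chain that pairs with dectin-2, stayed within 2-fold, with scaled signals of 3190 (0 h), 1784 (24 h) and 1694 (72 h). The exchange factor Vav1 was 3.16-fold lower, the kinase Prkcd 2.24-fold and the phospholipase Plcg2 2.05-fold. The kinase Src was 5.92-fold and the ubiquitin ligase Traf6 3.60-fold higher. In the clathrin uptake list 5 of 19 measured genes were lower and 0 higher, beside the same shares of all genes. The median there was -0.44, and 0.33 on the deposited scale. Arrb2 (beta-arrestin 2) was 6.13-fold lower, the endocytic adaptor Dab2 5.55-fold, Hip1 4.41-fold and Eps15 3.70-fold, while the clathrin heavy chain Cltc differed by a factor of 1.82.

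Genes of haemoglobin, haem, lipoprotein and fatty acid handling were also read. Whether uptake by the receptors bears on them was not tested. In the haemoglobin and haem list, 9 of 12 measured genes were lower at 72 h than at 0 h and 0 higher. The median was -1.95, and -1.17 on the deposited scale. At 24 h 9 of 11 were lower, with a median of -2.15 that was -1.27 on the deposited scale. All-gene shares of lower calls were 12.8% at 72 h and 9.22% at 24 h. Haptoglobin (Hp) was at least 16.6-fold lower at 72 h, the iron exporter Slc40a1 8.76-fold, Slc11a1 7.12-fold, and Hmox1, which breaks down haem, 5.99-fold. In lipoprotein and fatty acid handling 6 of 15 were lower and 1 higher at 72 h, beside 12.8% and 12.5% of all genes. The median was -0.79, and -0.02 on the deposited scale. The cholesterol exporter Abca1 was 4.49-fold lower, the nuclear receptor Rxra 3.81-fold, the lysosomal lipase Lipa 3.32-fold and the fatty acid carrier Fabp4 3.11-fold. Lipoprotein lipase (Lpl) was 2.89-fold higher, and Pparg, a nuclear receptor known to act on Cd36, was under the floor on all 3 arrays.

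Alternative activation is a macrophage state for which Mrc1 and Clec10a serve as markers. Its list had 19 genes on the array, of which Retnla, Mgl2, Ccl17, Ccl22, Pdcd1lg2 and Socs1 were under the floor on all 3 arrays. Of its 12 genes measured at 72 h against 0 h, 7 were lower and 3 higher at 72 h. All-gene shares were 12.8% and 12.5%, and the list median was -1.29, or -0.52 on the deposited scale. Arginase 1 (Arg1) was 20.3-fold lower, Igf1 10.5-fold, the interleukin-10 receptor chain Il10ra at least 9.23-fold and the chitinase-like Chil3 8.76-fold. Arg1 had a scaled signal of 1032 (0 h), 493 (24 h) and 50.8 (72 h), so the larger step came after 24 h, at a time when Mrc1 and Clec10a stayed within 2-fold. Fn1 was 3.93-fold, Il1rn 3.08-fold and Tgm2 2.84-fold higher. Of 18 transcription factors of the macrophage state 7 were lower and 2 higher, beside the same shares of all genes. The median was -0.66, and 0.09 on the deposited scale. Irf8 was 17.3-fold lower, Cebpa 8.58-fold, Cebpd 5.02-fold and Cebpb 4.23-fold, while Bhlhe40 was 8.57-fold and Id3 6.66-fold higher. Spi1, which encodes PU.1, had a log2 difference of 0.99, just within 2-fold, and of 1.76 on the deposited scale. Maf was near or under the floor on all 3 arrays.

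**Figure D4:**
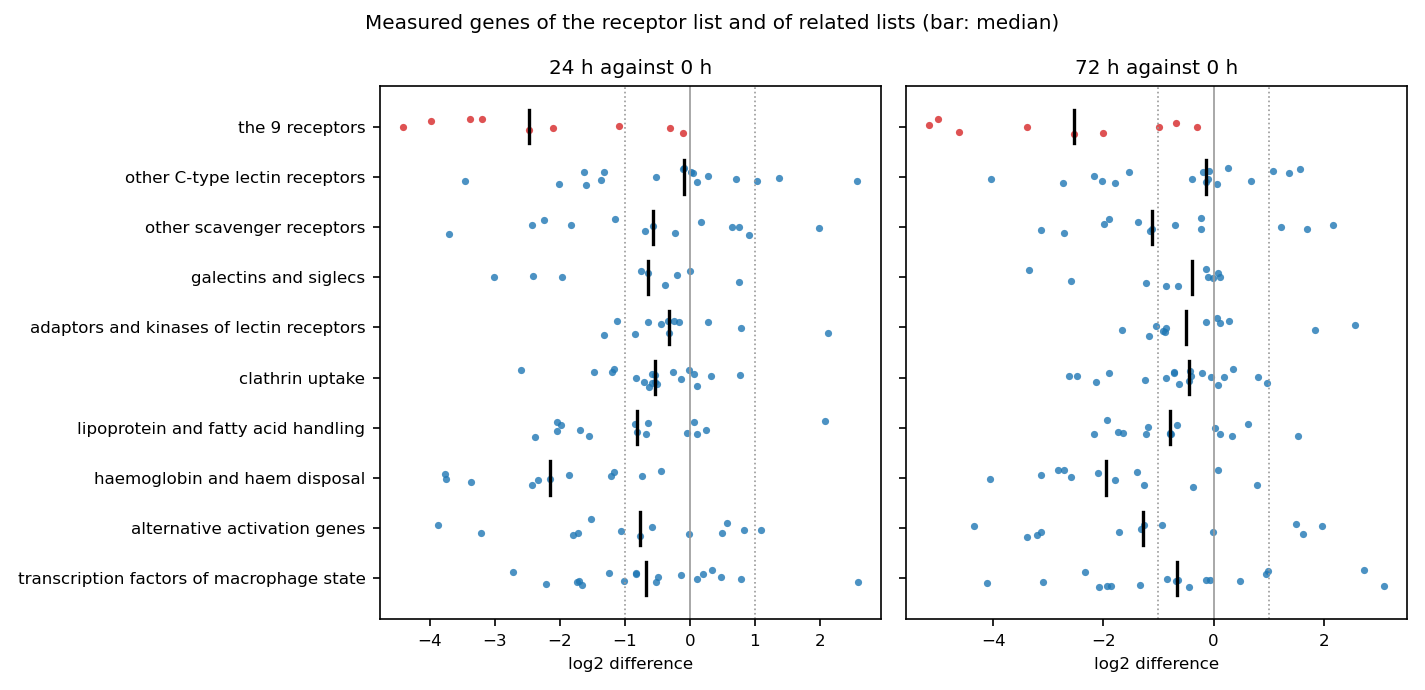
Log2 difference of every measured gene in the receptor list (red) and in 9 related lists (blue) for 24 h against 0 h and 72 h against 0 h, with black bars at the medians and dotted lines at 2-fold. The receptor median lies at -2.48 and -2.54, and the haemoglobin and haem list has the next lowest medians, -2.15 and -1.95. Vertical scatter within a list only separates the points.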

How the data were processed

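Total RNA of 3 cultures was hybridised to Affymetrix arrays, 1 per time, per the labels. The deposited values are linear intensity signals, 1 per probe set, and per the submitters' processing notes the authors used MAS5. Its version is not given in the sources used here. Of 22690 probe sets, 64 controls were set aside. Probe sets were named by the 2016 platform annotation. The 20380 probe sets with a single symbol were used, and the 691 with several and 1555 without one were not.

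With Python 3.11.15, numpy 2.4.6 and pandas 2.3.3, log2 values were centred on each array's median over gene probe sets (deposited medians lay 0.73 and 0.77 higher at 24 and 72 h than at 0 h on the log2 scale) and raised to the floor. A gene was represented by its brightest single-symbol probe set, by mean log2 value. The technical SD is the SD over genes (2727, 2702 and 2785 in the 3 comparisons) of the difference between the log2 differences of the 2 brightest probe sets, divided by the square root of 2. The steps were tested on simulated data whose planted changes lay in bright genes only, so changes near the floor were not covered.

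The receptors and all lists were chosen with earlier results of these data known. Some genes stand in several lists, so the list counts are not independent. From each related list the text names up to 4 genes with the largest 72 h against 0 h differences each way and the first-listed gene. Clec4a2, Mgl2 and Spi1 were named after their values were seen. So were the macrophage markers other than Csf1r, and Ppbp and Itgax among the other markers. Some list genes are named only as under the floor on all 3 arrays. RefSeq windows were matched by symbol. The closing section gives the 12 alternatives tried.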

Additional observations from a re-analysis of the deposited data

How the results depend on the processing

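The 12 alternatives were the deposited scale, quantile normalization, scaling to a 2% trimmed mean or to 18 hybridization control probe sets, floors at the 20th and 60th percentile, no floor, log2 of signal plus 16, the mean of a gene's probe sets, leaving out probe sets ending _s_at, _x_at or _a_at, and thresholds of 1.5-fold and 3-fold. The count of receptors lower at 24 h than at 0 h lay between 5 and 8 (7 as reported), that at 72 h against 0 h between 4 and 8 (6 as reported), and 0 were higher under any of the 12. Their median log2 difference at 24 h against 0 h lay between -3.38 and -2.00, and at 72 h against 0 h between -4.24 and -1.94. For 72 h against 24 h the count of 1 became 3 with no floor, where values under the floor enter, 3 at 1.5-fold, and 0 without _s_at, _x_at and _a_at probe sets, a setting that removes Stab1 and Clec4n. Mrc1, Marco, Cd36 and Clec10a were lower than at 0 h at both later times under 10 of 10 alternatives with a value other than the thresholds, and Stab1 and Clec4n under 9 of 9. Over these, the 72 h log2 difference of Mrc1 ranged from -5.29 to -4.40 and that of Cd36 from -2.67 to -1.77. Colec12 kept its 24 h call under 7 of 10 (range -1.29 to -0.36). Cd163 would be called lower at both times under 3 alternatives, at 24 h by -2.12 (20th percentile floor), -2.49 (no floor) and -1.28 (log2 of signal plus 16), values that rest on signals under the floor.

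Of 648 list counts under the alternatives, 115 moved by more than 1.5 times or to or from 0, 29 of them at 1.5-fold and 19 on the deposited scale. The share of lower calls among all called genes at 24 h against 0 h, 41.2% as reported, was 8.68% on the deposited scale, 53.1% after quantile normalization and 57.8% after trimmed mean scaling; for 72 h against 0 h it was 50.6%, with 13.2% on the deposited scale. No paired analysis was possible because each time has 1 array. No replicate could be left out for the same reason, and signal close to background limits Marco, Cd163 and the later Clec10a values.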
